A study of Mus musculus with 6 samples.

Results

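The genes that build and trim N- and O-linked glycans were followed in RNA-seq libraries of sorted mouse kidney cells with and without a floxed *Trf1* gene. They were found by their symbols, which cover mannose activation, lipid-linked oligosaccharide assembly, the oligosaccharyltransferase, mannose trimming, and the transferases that branch and cap N- and O-glycans, with the lysosomal mannosidases *Man2b1* and *Man2b2* left out. Of the 12125 genes listed in the deposited table, 71 carried such a symbol, and 69 of these matched a coding gene of the GRCm38 annotation by symbol. *Man2c1os* is an antisense RNA gene next to *Man2c1*, and *St6galnac2* has more than a single annotation entry. The family was chosen because *Gmppb* and *B3galt6* were at 0 in all *Trf1*+/+ libraries, so the values of those genes are a description and were not tested, and counts over the family in the same comparison are descriptions too.

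The control group was *Trf1*+/+; *Col1a2*-CreERT2 (3 mice) and the other group *Trf1*flox/flox; *Col1a2*-CreERT2 (3 mice). Both groups carried the Cre transgene and the KFP reporter allele (KFP+/t Cre+/t), and both received tamoxifen i.p., 3 injections a week over 8 weeks, starting at 6 to 8 weeks of age in males and females. KFP, the Katushka fluorescent protein, reports past Cre activity, and CreERT2 is a tamoxifen-activated Cre placed here under control of the *Col1a2* promoter, so recombination depends on cells that use that promoter. Cells were sorted with antibodies to CD29, an integrin, and to KFP, and 500 cells were pooled into each library. Values are given throughout in the order of replicates 1, 2 and 3, with *Trf1*+/+ first and *Trf1*flox/flox after the word "against", and these numbers pair no mice.

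Each library held between 10263382 and 12248797 reads on the listed genes, and a single read was worth 0.689 to 1.09 normalized counts, the unit used below. At most 3 reads was taken as the floor. *Terf1*, which encodes TRF1, showed 0.891, 253 and 235 (*Trf1*+/+) against 110.0, 7.65 and 12.4 (*Trf1*flox/flox). Its single read in the first of these libraries is at odds with the label, hence the wording "the library labelled *Trf1*+/+ replicate 1" below. That library also stood apart in depth per gene, with a median of 13.4 normalized counts against 118 to 148 in the others, and 12.9% of well expressed genes were at 0 there, against 9.01% in *Trf1*flox/flox replicate 2 and at most 3.68% elsewhere. Of 8 fibroblast markers only *Col1a2* and *Dcn* were listed, and the sum of both lay between 1.66 and 98.4 normalized counts per library, with *Col1a2* itself at no more than 1.78. All 10 proximal tubule markers were listed and summed to between 35406 and 160282, in libraries whose labels name fibroblasts. Of 6 lymphocyte markers only the T cell gene *Trac* was listed, with 0, 0 and 0 against 172, 216 and 61.3. Among the 5 markers of the loop of Henle and distal tubule, *Slc12a3* had 26373, 35066 and 25899 against 17956, 14271 and 18752, and *Calb1* 27371, 16530 and 11368 against 11124, 1341 and 7907. Both were lower in *Trf1*flox/flox libraries without overlap (adjusted p 0.970 in limma for each), although the sum of the 5 overlapped. Of the 5, 2 had a positive log2 fold change, *Umod* (0.12, standard error 0.50) and *Slc12a1* (1.13, standard error 0.75), and 3 a negative one. The third of these, *Pvalb* (-0.92, standard error 0.67), overlapped, as did *Umod* and *Slc12a1*. All 8 collecting duct markers were listed and 6 were tested in limma, 2 with a positive and 4 with a negative log2 fold change. Among them *Slc26a4* had 1295, 3168 and 119 against 0, 191 and 53.7, with overlap (unadjusted p 0.0257 and adjusted p 0.970 in limma). The positive log2 fold changes were those of *Aqp2* (3.93, standard error 3.72) and *Slc4a1* (3.13, standard error 3.19). The part of these markers in the results below was not tested. In such bulk libraries fewer cells of a type and less RNA per cell cannot be told apart.

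N-glycans are assembled on the lipid dolichol at the endoplasmic reticulum, moved as a block onto asparagine by the oligosaccharyltransferase, and then trimmed and rebuilt in the Golgi. O-glycans start with a single sugar on serine or threonine, either N-acetylgalactosamine for mucin-type chains or xylose for glycosaminoglycans, and grow by stepwise addition. In the kidney, glycans of both kinds sit on the apical receptors and transporters of tubule cells, on basement membrane proteins and on integrins.

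Upstream sequences are shown for 4 of the genes whose libraries did not overlap between the genotypes. They were taken from RefSeq on GRCm38.p6, span the 250 bases before the annotated start and run 5′ to 3′ on the gene's strand. *B3galt6* (chr4:155992679-155992928, minus strand) is shown because it was at 0 in all *Trf1*+/+ libraries, and the capitals mark a run of 20 bases that occurs 8 times in the window.
B3galt6: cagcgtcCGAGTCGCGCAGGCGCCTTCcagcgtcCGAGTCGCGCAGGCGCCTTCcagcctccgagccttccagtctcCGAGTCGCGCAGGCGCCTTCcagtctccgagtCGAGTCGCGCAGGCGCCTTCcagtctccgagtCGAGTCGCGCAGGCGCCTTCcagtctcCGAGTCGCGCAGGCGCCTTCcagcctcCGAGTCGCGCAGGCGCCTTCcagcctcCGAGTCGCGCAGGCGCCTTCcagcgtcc
A run of 20 bases present 5 or more times was found in 35 of 32851 such windows (0.1065%), and *B3galt6* was the only family gene among them. *Mgat4a* (chr1:37541017-37541266, minus strand) is shown because it had the smallest p of the family other than *Gmppb* and *B3galt6*, which were given no p, *B3gat3* (chr19:8920143-8920392, plus strand) because it alone was lower without overlap, and *Rpn1* (chr6:88084223-88084472, plus strand) as the member with the most counts among those that did not overlap. In these windows the capitals mark GGGCGG (a GC box) and CCAAT on either strand.
Mgat4a: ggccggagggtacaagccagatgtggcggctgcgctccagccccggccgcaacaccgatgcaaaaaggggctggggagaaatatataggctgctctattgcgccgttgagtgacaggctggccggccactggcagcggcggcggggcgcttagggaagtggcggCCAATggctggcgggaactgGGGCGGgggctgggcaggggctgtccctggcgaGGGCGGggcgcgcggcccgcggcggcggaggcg
B3gat3: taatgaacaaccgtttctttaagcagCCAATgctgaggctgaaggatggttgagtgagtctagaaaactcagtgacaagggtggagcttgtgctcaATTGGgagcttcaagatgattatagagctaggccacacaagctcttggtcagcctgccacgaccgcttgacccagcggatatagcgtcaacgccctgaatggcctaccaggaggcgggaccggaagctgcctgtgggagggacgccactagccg
Rpn1: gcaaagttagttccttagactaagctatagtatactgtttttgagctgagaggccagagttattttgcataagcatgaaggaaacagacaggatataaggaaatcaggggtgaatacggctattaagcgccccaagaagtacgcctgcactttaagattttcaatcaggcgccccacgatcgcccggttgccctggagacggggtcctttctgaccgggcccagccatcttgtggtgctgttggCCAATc
The *Mgat4a* window held 2 GC boxes and 1 CCAAT, that of *B3gat3* 2 CCAAT and that of *Rpn1* 1 CCAAT, and none of the 4 windows held TATAAA or CACGTG. The windows of *B3galt6* and *Mgat4a* were 71.6% and 72.4% G and C, those of *B3gat3* and *Rpn1* 54.4% and 49.2%, and the median of all windows was 52.4%. Over the 63 windows of 52 family genes with an entry, GGGCGG was found in 57.1%, compared with 32.7% of all windows. The shares were 30.2% and 33.9% for CCAAT, 3.18% and 12.4% for TATAAA, and 6.35% and 6.02% for CACGTG. All windows were not limited to genes listed in these libraries, and a gene with several starts counted more than once. A comparison with the listed genes alone was not made, so these shares are not read as a trait of the family. These are matches of letters on either strand, not sites of binding, and the motifs do not overlap each other.

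**Figure D1:**
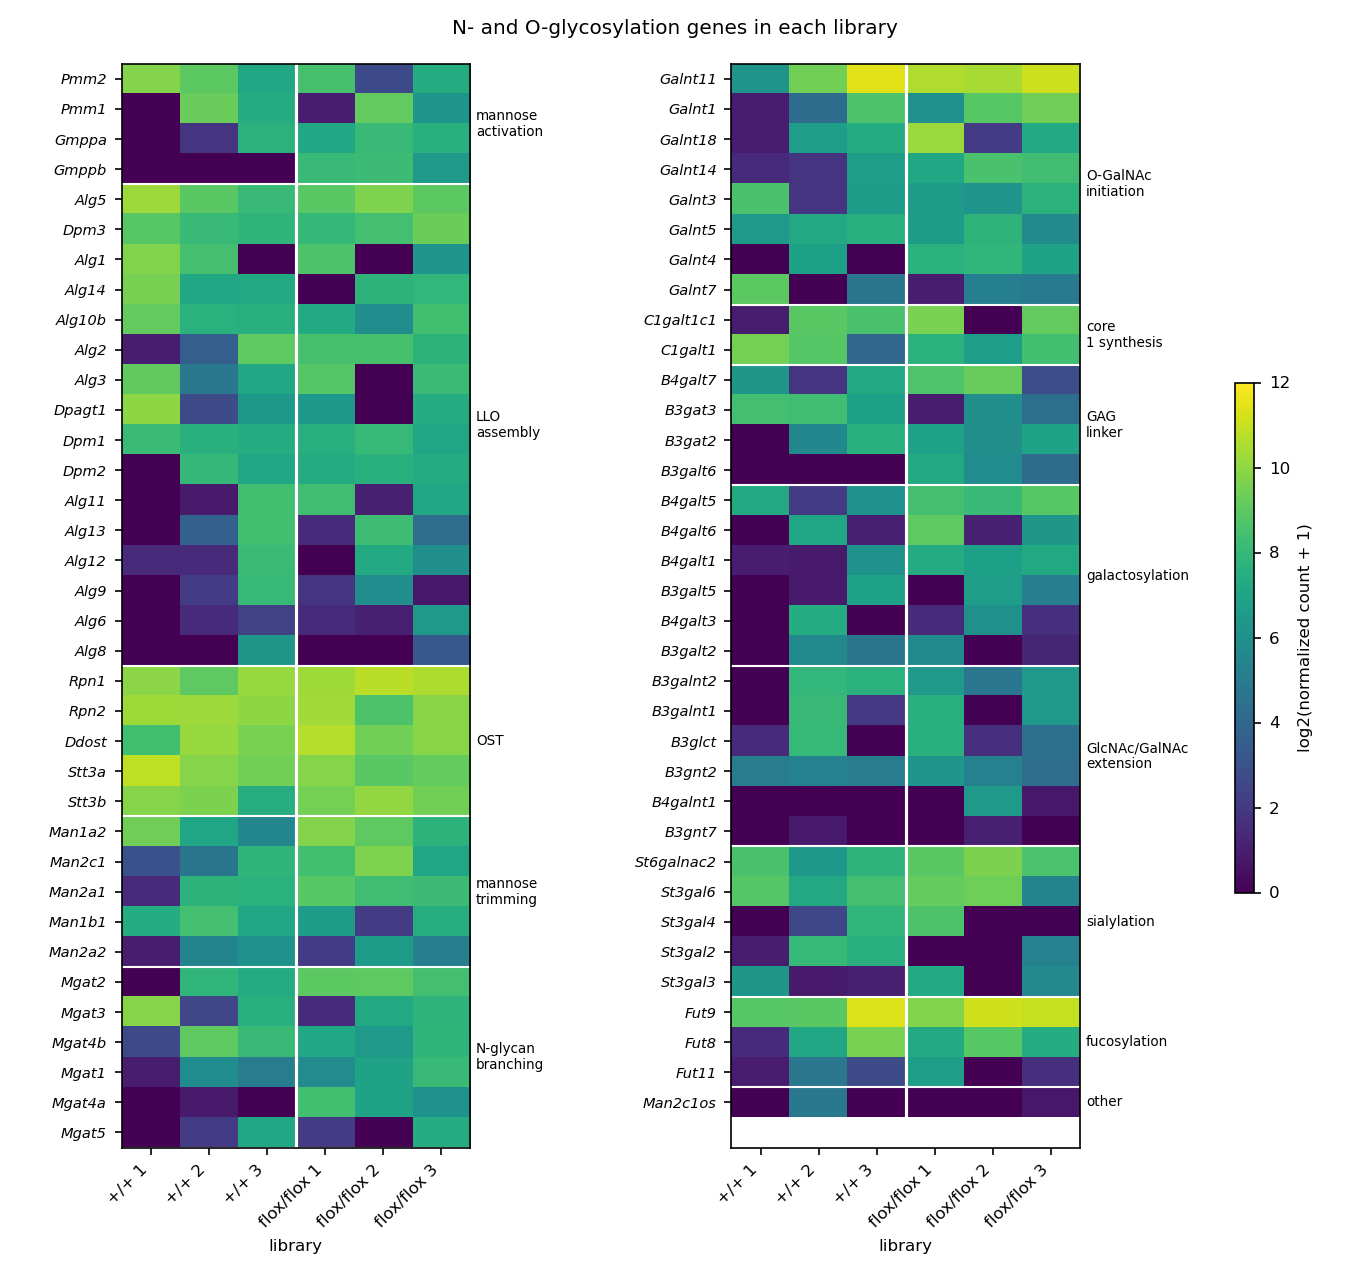
Level of the 71 genes in the 6 libraries, with color showing log2(normalized count + 1), rows grouped by role and sorted within a role by mean, and a white vertical line between the *Trf1*+/+ (left) and *Trf1*flox/flox (right) libraries. LLO is lipid-linked oligosaccharide, OST oligosaccharyltransferase and GAG glycosaminoglycan. The OST rows are bright in all libraries, *Gmppb* and *B3galt6* are dark in the 3 *Trf1*+/+ libraries, and the library labelled *Trf1*+/+ replicate 1 holds 25 genes at 0.

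GDP-mannose, which gives the cytosolic mannoses of the N-glycan precursor directly and the lumenal ones by way of dolichol-phosphate-mannose, is made in successive steps by the phosphomannomutases (*Pmm1*, *Pmm2*) and GDP-mannose pyrophosphorylase, with *Gmppb* as the catalytic and *Gmppa* as the regulatory subunit. *Gmppb* (ENSMUSG00000070284, chromosome 9, 108049242 to 108052801, plus strand, GRCm38) was listed at 0 in each of the 3 *Trf1*+/+ libraries, whereas the *Trf1*flox/flox libraries held 273, 303 and 88.2 normalized counts. Against a floor of 3 reads per *Trf1*+/+ library this was at least 81.9-fold higher. Among all listed genes, 270 were at 0 in every *Trf1*+/+ library and 25 of them were above the floor in every *Trf1*flox/flox library. In the other direction, 113 genes were at 0 in every *Trf1*flox/flox library and 2 of them were above the floor in every *Trf1*+/+ library. *Gmppa* had 0, 2.49 and 209.9 against 143, 275 and 194, so *Trf1*+/+ replicate 3 lay among the *Trf1*flox/flox libraries. *Pmm2*, the mutase with the most counts, had 866, 510.4 and 146 against 361, 5.46 and 172 (log2 fold change -2.44, standard error 1.58). *Pmm1* had 0, 604 and 171 against 0.859, 559.5 and 77.2, with a library of each genotype at or under the floor. Of these 4 genes only *Gmppb* did not overlap between the genotypes.

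The 3′ part of *Gmppb* lies across the end of *Rnf123*, a ubiquitin ligase gene on the opposite strand. Both genes share 937 exon bases, 33.64% of the 2785 exon bases of *Gmppb*, between positions 108051534 and 108052699, of which 442 are coding in *Rnf123* and 0 in *Gmppb*. *Rnf123* had 0, 5.80 and 0 against 186, 82.0 and 52.4. Both genes were high in the same 3 libraries. The libraries carry no strand, so reads on the shared bases cannot be assigned to either gene, and the share of such reads in the *Gmppb* values was not tested.

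Assembly of the lipid-linked oligosaccharide begins with *Dpagt1*, which puts the first sugar on dolichol, continues with *Alg13*, *Alg14*, *Alg1*, *Alg2* and *Alg11* on the cytosolic side and ends with *Alg3*, *Alg9*, *Alg12*, *Alg6*, *Alg8* and *Alg10b* in the lumen. All 16 genes of this route were listed and 13 passed the filter, of which 7 had a positive and 6 a negative log2 fold change (median 0.08), and none of them separated the genotypes. *Alg5*, which makes dolichol-phosphate-glucose, had the most counts, with 1222, 493 and 283 against 489, 831 and 498. Its log2 fold change of 0.08 (standard error 0.74) turned negative with edgeR, with DESeq2 and without *Trf1*+/+ replicate 2, *Trf1*+/+ replicate 3 or *Trf1*flox/flox replicate 2. The subunits of dolichol-phosphate-mannose synthase were among the steadiest genes of the family. *Dpm1* lay between 134 and 289 normalized counts over the 6 libraries and *Dpm3* between 232 and 627. *Dpm2* had 0, 257 and 142 against 168, 195 and 167, so that a single zero stood apart. The remaining steps were patchy. *Dpagt1* had 992, 5.80 and 82.8 against 82.5, 0 and 173, *Alg14* 735, 141 and 158 against 0, 219 and 247, and *Alg11* 0, 0.829 and 325 against 314, 1.09 and 147. Of the 16 genes 11 were at 0 in at least 1 library, and *Alg6*, *Alg8* and *Alg9* did not pass the filter.

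The oligosaccharyltransferase was the only step with every gene above the floor in all 6 libraries, and had the highest median level per length. *Ddost*, *Rpn1*, *Rpn2*, *Stt3b* and *Stt3a* stood at the percentiles 92.0, 88.0, 86.6, 82.9 and 74.8 of normalized counts per kb of exon among the listed genes. *Rpn1* (ribophorin I, which hands substrates to the enzyme) had 964, 511 and 1136 against 1252, 1733 and 1482. The means were 870.4 ± 323 and 1489 ± 241 (SD, n = 3), and all *Trf1*flox/flox libraries lay above all *Trf1*+/+ libraries. The log2 fold change was 0.84 (standard error 0.55), and the unadjusted p from limma was 0.153. *Rpn2*, its partner subunit, had 1253, 1220.5 and 991 against 1310.3, 396 and 939, with only *Trf1*flox/flox replicate 2 apart from the others. *Ddost*, which encodes the OST48 subunit, had 330.5, 1137 and 774 against 1617, 706 and 928. The log2 fold changes of the catalytic subunits had opposite signs, with overlap in each. *Stt3a*, which works alongside the translocon, had 1824, 899 and 702 against 900.5, 483 and 569 (log2 fold change -0.74, standard error 0.62). *Stt3b*, which acts on sites that were skipped, had 895, 795 and 177 against 714, 1049 and 688 (log2 fold change 0.68, standard error 0.75), and the sign turned without *Trf1*+/+ replicate 3. The direction of *Rpn2* turned when both libraries with the most zeros were left out.

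**Figure D2:**
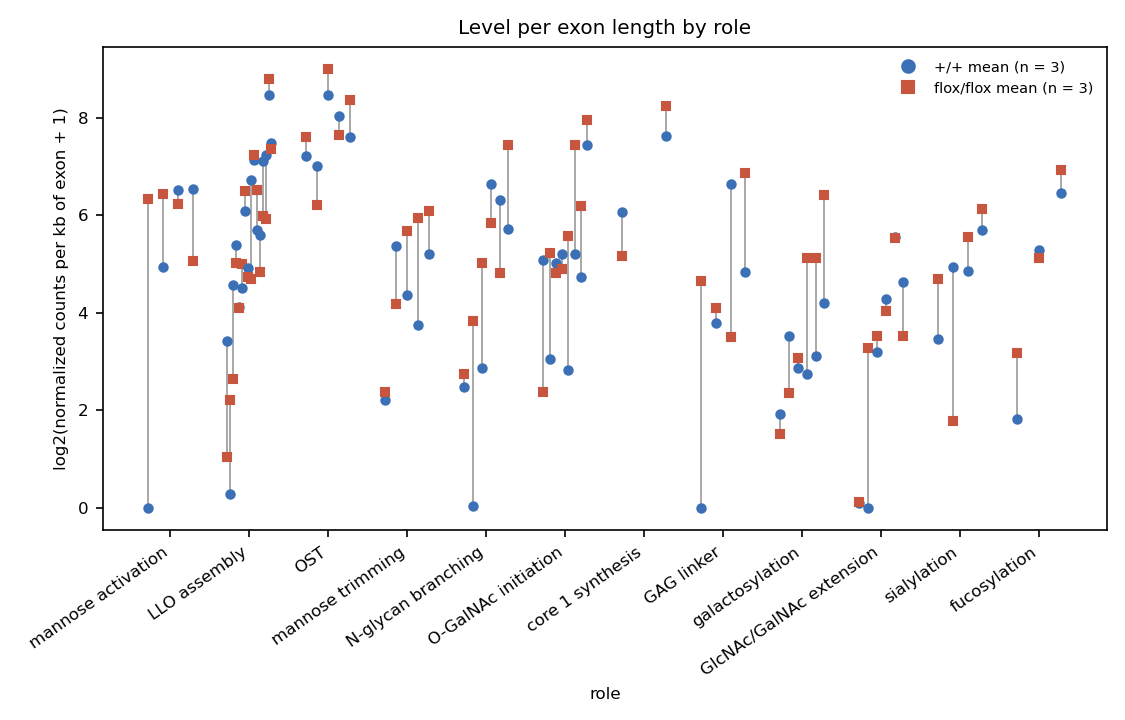
Mean level of each gene per kb of exon, on the scale log2(normalized counts per kb + 1), by role, for *Trf1*+/+ (circles) and *Trf1*flox/flox (squares) libraries, with a line joining the means of a gene and genes in a role ordered from the lowest to the highest mean count. *St6galnac2* and *Man2c1os* are not drawn. The OST genes lie high with short lines, whereas *Gmppb*, *Mgat4a* and *B3galt6* have the longest lines with a *Trf1*+/+ mean at or near 0.

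After transfer, mannosidases trim the N-glycan. The 5 genes of this step were above 0 in all libraries, and 4 had a positive and 1 a negative log2 fold change. *Man2a1*, the Golgi mannosidase II that opens the way to complex glycans, had 1.78, 217 and 204 against 473, 320.2 and 299.8, without overlap (log2 fold change 2.84, standard error 1.77). *Man1a2*, a Golgi mannosidase of class I and the gene with the most counts here, had 680.5, 138 and 46.3 against 866, 522 and 216. *Man2c1*, a cytosolic mannosidase, had 7.13, 24.0 and 233 against 327, 824 and 138. In both genes a single library, the library labelled *Trf1*+/+ replicate 1 for *Man1a2* and *Trf1*+/+ replicate 3 for *Man2c1*, lay among the *Trf1*flox/flox values. *Man1b1*, the mannosidase that marks misfolded glycoproteins, had 171, 338 and 143 against 93.7, 3.28 and 179.

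Branching of N-glycans depends on N-acetylglucosaminyltransferases. *Mgat4a*, which adds a branch to the core of complex glycans, had 0, 0.829 and 0 against 324, 119 and 67.5. A single read was thus found in the *Trf1*+/+ libraries together, and every *Trf1*flox/flox library was far above it. The ratio of the means was 616, with a 95% interval of 111 to 24339 from counting error in that single read alone. The log2 fold change was 6.83 (standard error 1.95), with an unadjusted p of 0.00441 and an adjusted p of 0.970 from limma. DESeq2 on the recovered reads gave 0.00692 for the adjusted p, which ranged up to 0.999 (edgeR) in the settings that could be fitted. *Mgat4a* passed the filter on low values only through the *Trf1*flox/flox libraries, so a gene with its level had to differ to be tested at all, and it could not be fitted without any of those 3 libraries. *Mgat4b*, which catalyzes the same reaction, had 5.34, 528 and 268 against 143, 87.4 and 231 and overlapped. The sum of *Mgat4a* and *Mgat4b* was not tested. *Mgat2*, which starts the arm that makes a glycan complex, had 0, 238 and 168 against 499, 521 and 339, without overlap (log2 fold change 3.70, unadjusted p 0.0897 from limma). *Mgat1*, which starts the first branch, had 0.891, 55.5 and 32.5 against 54.1, 120.2 and 273, and *Trf1*flox/flox replicate 1 lay just under *Trf1*+/+ replicate 2. *Mgat3*, which adds the bisecting sugar, had 899.6, 4.97 and 189 against 1.72, 156 and 224. *Mgat5* had 0, 3.31 and 139 against 3.44, 0 and 174 and did not pass the filter.

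Mucin-type O-glycans are started by the polypeptide N-acetylgalactosaminyltransferases, of which 8 were listed and tested, 6 with a positive and 2 with a negative log2 fold change. *Galnt11*, known in the proximal tubule for glycosylating the receptor megalin, had the most counts of any gene of the family that starts a chain, with 72.1, 702 and 2791 against 1509, 1370.4 and 2179.6. The *Trf1*+/+ libraries thus spanned the whole range on their own. *Galnt14* had 1.78, 2.49 and 104 against 143, 375 and 314, without overlap (log2 fold change 4.68, standard error 2.23). *Galnt4* had 0, 112 and 0 against 199, 238 and 119.9, and *Trf1*+/+ replicate 2 came close to *Trf1*flox/flox replicate 3 (log2 fold change 5.22, standard error 2.54). *Galnt4* shares 420 exon bases with *Poc1b*, a centriole gene on the same strand, which had 1.78, 34.8 and 27.6 against 13.7, 0 and 22.1. *Galnt1* had 0.891, 18.2 and 406 against 63.6, 466 and 669. The next step, core 1 synthesis, needs the enzyme *C1galt1* and its chaperone *C1galt1c1* (Cosmc). *C1galt1c1* had 0.891, 481 and 375 against 755, 0 and 552, so each genotype held a library at or under the floor, and the sign of its small log2 fold change (0.10, standard error 2.94) depended on the setting. *C1galt1* had 729, 456 and 14.8 against 204, 105 and 327.

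The tetrasaccharide that links glycosaminoglycans to proteins is built on xylose by *B4galt7*, *B3galt6* and *B3gat3* in this order. *B3galt6* (ENSMUSG00000050796, chromosome 4, 155989466 to 155992649, minus strand), whose upstream window with its repeats is printed above, was at 0 in each *Trf1*+/+ library, and the *Trf1*flox/flox libraries held 156, 55.7 and 17.9. This was at least 28.2-fold higher, against the same floor as for *Gmppb*, and no exon of another gene overlaps it. *B3gat3*, which adds the final glucuronic acid, had 339, 315 and 110.4 against 0.859, 60.1 and 19.3, without overlap (log2 fold change -4.11, standard error 2.15). The unadjusted p of *B3gat3* was 0.0799 and its adjusted p 0.970 from limma. *B4galt7* had 81.1, 2.49 and 157 against 407, 593 and 6.20, where *Trf1*flox/flox replicate 3 was low and overlapped. *B3gat2*, a relative known for the HNK-1 epitope rather than the linker, had 0, 47.2 and 193 against 117, 60.1 and 122. *Xylt1*, which transfers the xylose and is not part of the symbol list, had 0.891, 4.97 and 1.97 against 163, 290 and 158 (log2 fold change 5.93, standard error 2.18, unadjusted p 0.0187 and adjusted p 0.970 from limma). Like *Mgat4a*, *Xylt1* passed the filter only through the *Trf1*flox/flox libraries, so a gene with its level had to differ to be tested. *Fam20b*, the kinase that phosphorylates the xylose, had 426, 261 and 199 against 743, 323 and 266 and overlapped.

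Among the galactosyltransferases, *B4galt1*, the main enzyme of N-glycan antennae, had 0.891, 0.829 and 70.9 against 167, 107 and 156. *B4galt5*, a lactosylceramide synthase with the most counts of this role, had 157, 3.31 and 64.0 against 348, 272 and 473 (log2 fold change 3.33, standard error 1.68). Neither overlapped between the genotypes. *B4galt6*, which shares the reaction of *B4galt5*, had 0, 132 and 0.985 against 511, 1.09 and 80.6 and overlapped. Of the 6 extension genes, *B3galnt2*, which acts on O-mannose glycans of dystroglycan, had 0, 249 and 205 against 85.9, 25.1 and 88.9. Its log2 fold change of 0.66 rested on the library labelled *Trf1*+/+ replicate 1, and without it every *Trf1*flox/flox library lay below the *Trf1*+/+ libraries. *B3gnt2*, the main polylactosamine enzyme, was between 18.6 and 74.8 in all libraries. It shares much of its exon sequence with the gene model *Gm28048* on the same strand, which was not listed. The effect of the shared bases on the *B3gnt2* values was not tested. *B4galnt1*, a ganglioside enzyme, was also at 0 in all *Trf1*+/+ libraries, like *Gmppb* and *B3galt6*. In the *Trf1*flox/flox libraries it had 0, 89.6 and 0.689, so unlike those genes it was not above the floor in each of them. *B3gnt7* had at most 1 read in any library.

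Capping genes were mixed. *St6galnac2*, which puts sialic acid on the first sugar of O-glycans, had 373, 83.7 and 226 against 481, 797 and 385, without overlap, although the library labelled *Trf1*+/+ replicate 1 and *Trf1*flox/flox replicate 3 were close (log2 fold change 1.46, standard error 0.90). *St3gal2* had 0.891, 264 and 184 against 0, 0 and 37.2, and *St3gal6* 452, 148 and 345 against 576, 655 and 40.7. *Fut9*, which makes the Lewis x structure, had the most counts of the fucosyltransferases with 472, 479.7 and 2647 against 855, 2226 and 1945. *Fut8*, the core fucosyltransferase, had 1.78, 142 and 757 against 158, 476 and 171. *Man2c1os* had 26.5 normalized counts in *Trf1*+/+ replicate 2, 1 read in *Trf1*flox/flox replicate 3 and 0 elsewhere.

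**Figure D3:**
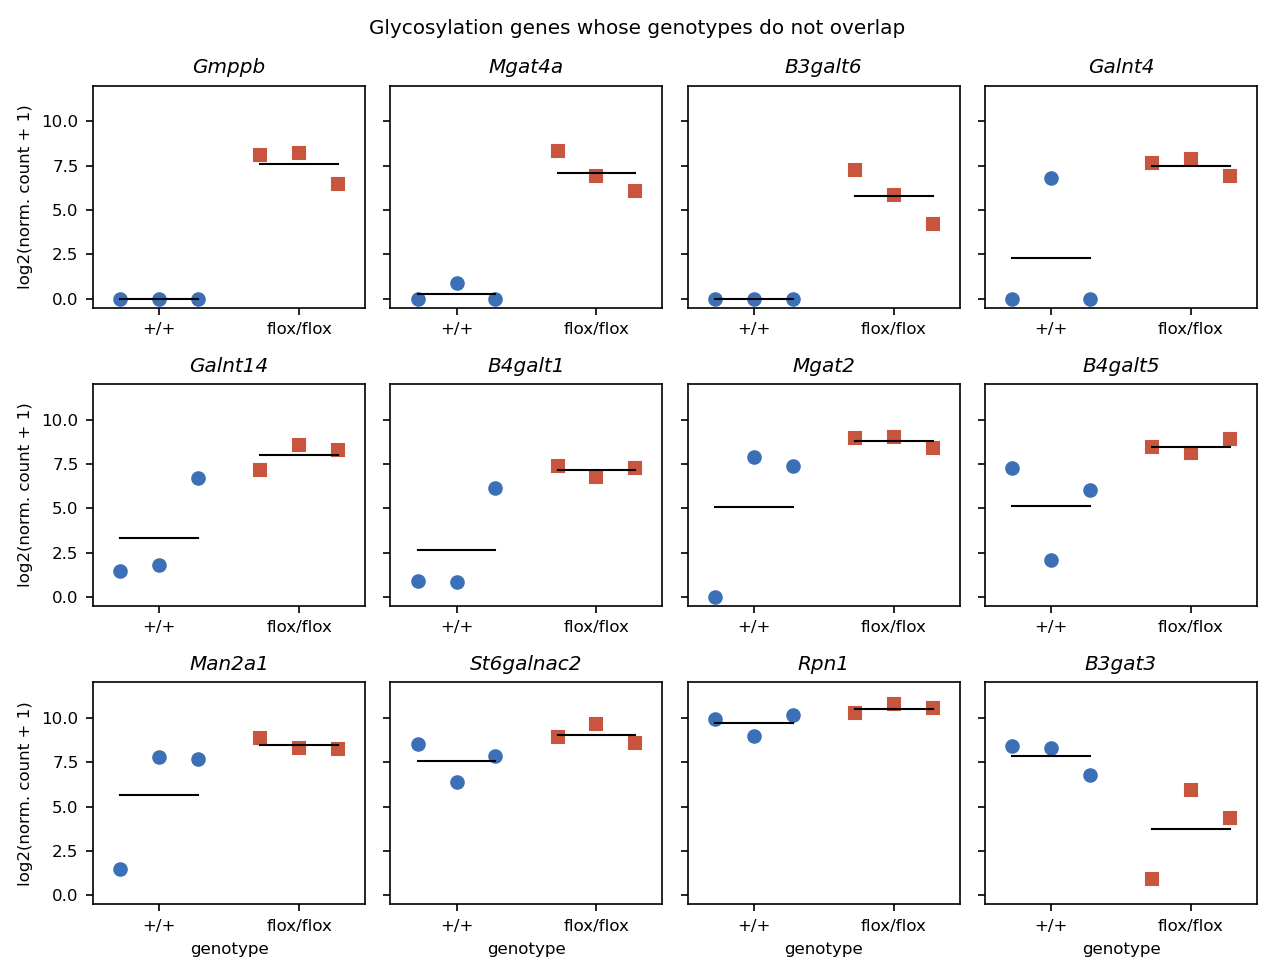
The 12 genes whose 3 *Trf1*+/+ (circles) and 3 *Trf1*flox/flox (squares) libraries did not overlap, as log2(normalized count + 1) per library in the order of replicates 1 to 3, with lines at the group means of this scale. Panels run from the largest positive to the negative log2 fold change, and *Gmppb* and *B3galt6* are shown for description since their zeros led to the choice of the family. *Rpn1* and *St6galnac2* show narrow gaps between the groups, whereas *B3gat3* alone is lower in *Trf1*flox/flox libraries.

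Taking all 71 genes, 11 were higher in every *Trf1*flox/flox library than in any *Trf1*+/+ library (*Gmppb*, *B3galt6*, *Mgat4a*, *Galnt14*, *B4galt1*, *Galnt4*, *B4galt5*, *Mgat2*, *Man2a1*, *St6galnac2* and *Rpn1*), and 1 was lower (*B3gat3*). Over all 12125 listed genes, 5.43% were higher and 3.15% lower in this way. The family was chosen on this same comparison through *Gmppb* and *B3galt6*, so nothing is read from the difference between these shares. Of the 12 genes, 5 had no read in the library labelled *Trf1*+/+ replicate 1 and 8 lay at or under its floor. Without that library 12 were higher and 4 lower (*B3gat3*, *B3galnt2*, *Mgat4b* and *St3gal2*), and 8.71% and 8.73% of all listed genes were. Without *Trf1*+/+ replicate 3, 23 genes of the family and 22.4% of all listed genes did not overlap in either direction, and without *Trf1*flox/flox replicate 3, 19 and 17.1%.

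Of the 71 genes 61 passed the filter of 10 normalized counts or more in at least 3 libraries, and 3 of these (*Gmppb*, *B3galt6* and *Mgat4a*) passed it through the *Trf1*flox/flox libraries alone, and 149 of all tested genes passed it through a single genotype. Differences were estimated with limma on log2(normalized count + 1) over all 9966 tested genes. The added 1 understates the change of genes at or near 0 throughout a genotype. Genes at or near 0 in only part of a genotype varied. *Galnt4* and *Mgat2* had larger log2 fold changes in limma (5.22 and 3.70) than in edgeR (2.20 and 1.66), and *C1galt1c1* a smaller one (0.10, and 0.60 in edgeR). Of the 61, 43 had a positive and 18 a negative log2 fold change, with a median of 0.84, compared with 0.20 over all tested genes, of which 55.9% were positive. By plain means of normalized counts the split was 35 higher and 26 lower, and 47.9% of all tested genes were higher. Leaving out the 3 genes that had to differ, 40 log2 fold changes were positive and 18 negative with a median of 0.71. With the upper quartile of the libraries set equal, the median over all genes was 0.45 and that of the family 1.12. With TMM scaling in edgeR, 35 of the 61 were positive and the medians were -0.04 over all genes and 0.34 over the family. Without the library labelled *Trf1*+/+ replicate 1, 37 of 60 were positive, with medians of 0.34 for the family and -0.02 for all genes.

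No gene of the family passed an adjusted p of 0.05 in limma, and none of all tested genes did (0.0% called, smallest adjusted p 0.970). At an unadjusted p under 0.05, limma called 312 genes, 3.13% of those tested, and of the family, other than *Gmppb* and *B3galt6*, only *Mgat4a*. DESeq2 called 58 genes (0.582%) at an adjusted p under 0.05, and of the family, again other than *Gmppb* and *B3galt6*, only *Mgat4a*. Both calls of *Mgat4a* are of a gene that passed the filter through the *Trf1*flox/flox libraries alone, so they do not stand as support for a difference in the family. Without the library labelled *Trf1*+/+ replicate 1, 5 genes of the family (*B4galt5*, *Man1a2*, *Mgat4a*, *St3gal2* and *St6galnac2*) had an unadjusted p under 0.05 in limma, as did 3.34% of all genes then tested. The count was 3 without *Trf1*+/+ replicate 2 and 9 without *Trf1*+/+ replicate 3, where 4.66% and 7.37% of all tested genes were called. It was 0 without *Trf1*flox/flox replicate 1, 2 or 3, where 1.65%, 1.45% and 2.7% were called. The family count and the share of all genes were both highest without *Trf1*+/+ replicate 3. Both fell without any *Trf1*flox/flox library, where *Mgat4a* did not pass the filter. They did not move together between the fits without *Trf1*+/+ replicate 1 (5 and 3.34%) and without replicate 2 (3 and 4.66%).

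**Figure D4:**
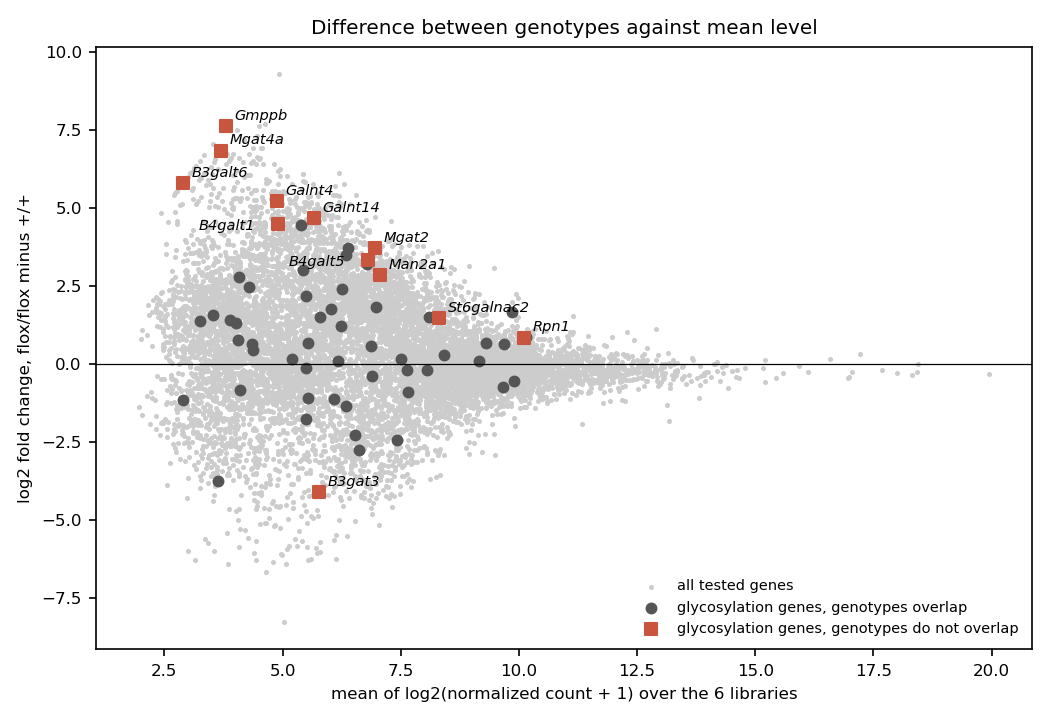
Log2 fold change (*Trf1*flox/flox minus *Trf1*+/+) from limma against the mean of log2(normalized count + 1) over the 6 libraries for the 9966 tested genes (gray), the tested glycosylation genes that overlap (dark circles) and those that do not (squares, named). Squares of low mean lie toward the edge of the gray cloud, which narrows as the level increases, and *Rpn1* at 0.84 lies at the right among abundant genes; the heights of *Gmppb* and *B3galt6* depend on the added 1 and are no bound.

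The spread between mice was large in this family. The median SD within a genotype was 2.56 on the log2 scale, compared with 2.17 over all tested genes. Only 21 of the 71 genes (29.6%) were above the floor in all 6 libraries, compared with 41.2% of listed genes, and 36 (50.7%) were at 0 in at least 1, compared with 41.9%. The genes at 0 numbered 25, 5 and 10 against 8, 13 and 2. As a share of the family these were 35.2%, 7.04% and 14.1% against 11.3%, 18.3% and 2.82%, whereas over all listed genes the shares were 26.0%, 8.37% and 9.80% against 9.60%, 19.7% and 4.39%. The summed level differed much less, with 17317, 14004 and 18539 normalized counts against 21518, 19575 and 18777. In each genotype 1 library thus held most of the zeros, and the part of these zeros in the differences of single genes was not tested.

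Of 71 further genes that serve the same pathways without matching the symbols, 61 were listed and 54 tested, of which 36 had a positive and 18 a negative log2 fold change. None passed an adjusted p of 0.05 in limma and 5 had an unadjusted p under 0.05, beside 3.13% of all tested genes. Among those 5, *Xylt1*, *Nans* and *Slc35d2* passed the filter through the *Trf1*flox/flox libraries alone and had to differ to be tested. Their p values therefore do not stand as support for a difference. Of the 61, 6 did not overlap, all of them higher in *Trf1*flox/flox libraries, beside the 5.43% higher and 3.15% lower of all listed genes. This list, too, was chosen with results of these data known. Besides *Xylt1*, these included the transporters *Slc35b4* (UDP-xylose and UDP-N-acetylglucosamine) with 0, 4.14 and 240 against 584, 673 and 487, and *Slc35d2* with 0, 0 and 5.91 against 67.9, 144 and 205. *Nans*, which makes sialic acid, had 0, 0.829 and 0.985 against 105, 228 and 86.8. *Edem3*, a mannosidase-like protein of glycoprotein degradation, had 0, 0.829 and 19.7 against 419, 224 and 72.4. *Pomk*, a kinase of O-mannose glycans, had 0.891, 0.829 and 0 against 3.44, 4.37 and 92.3 and did not pass the filter. These genes were at or under the floor in the library labelled *Trf1*+/+ replicate 1, as were *Gmppb*, *B3galt6* and *Mgat4a*.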

How the data were processed

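RNA of 500 sorted kidney cells per mouse was reverse transcribed from oligo(dT) with a template switch, PCR-amplified and sequenced, with neither strand information nor molecular identifiers. Per the labels and the methods, the authors aligned reads with TopHat 2.0.10 and Bowtie 1.0.0 (SAMtools 0.1.19), counted genes with HTSeq 0.6.1 and normalized them. The methods name GRCm38 and the submitters' processing notes GRCm39, with DESeq2 listed without a role. The deposited signal is each gene's read count divided by 1 size factor per library. All values were whole multiples of that of 1 read, within 0.01 of a read, so reads were recovered (10263382 to 12248797 per library). Intervals and floors cover counting error only.

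Differences were tested two-sided with limma 3.58.1 (R 4.3.3, variance trend, Benjamini-Hochberg over 9966 genes) on log2(normalized count + 1), after a filter of 10 normalized counts in 3 libraries. edgeR 4.0.16 and DESeq2 1.42.0 on recovered reads, other pseudocounts, filters and scalings, and left-out libraries were alternatives. The statistics were also run on simulated counts with a set spread. No zeros were added there as seen in single libraries here, so that run cannot show how the tests treat such genes. Coordinates and exon lengths come from GENCODE vM21 (GRCm38) by symbol, for 70 of the 71 genes. Genes were named where they led to the choice, belong to the oligosaccharyltransferase, did not overlap between genotypes, had the highest mean of a role or were among the 10 smallest p; other genes were named after their values were seen. The genes and lists were chosen with earlier results of these data known. Replicates of a genotype are separate mice.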

Additional observations from a re-analysis of the deposited data

How the results depend on the processing

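The median log2 fold change of the family lay between 0.34 and 1.31, and 33 to 48 genes had a positive value, of a number tested that differed between settings. These values include *Gmppb*, *B3galt6* and *Mgat4a* where they passed the filter, so their sign is a description. The median over all tested genes moved too, from 0.20 to 0.45 with the upper quartile, -0.04 in edgeR and -0.02 without the library labelled *Trf1*+/+ replicate 1. At an adjusted p under 0.05, DESeq2 called 58 genes, against 0 in limma, in edgeR and under the other settings. At an unadjusted p under 0.05, 312 of all tested genes were called in limma, 196 in edgeR and 410 in DESeq2. In limma 411 were called without a filter, 400 with the filter in 1 library and 454 without the variance trend. Calls numbered 122 without both libraries with the most zeros (the library labelled *Trf1*+/+ replicate 1 and *Trf1*flox/flox replicate 2), and 136 to 662 with each library left out in turn. Of the family other than *Gmppb* and *B3galt6*, 1 gene was called, 2 with DESeq2, without a filter or with the filter in 1 library, 5 without the variance trend in limma (chosen after seeing the data), and 0 to 9 with a library left out, where *Mgat4a* no longer passed the filter without any *Trf1*flox/flox library. Genotypes did not overlap for 12 genes of the family, beside 5.43% higher and 3.15% lower of all listed genes. The count was 23 without both libraries with the most zeros and 13 to 23 with a library left out, since fewer libraries overlap less often. Over all listed genes the share rose as well, to 22.4% without *Trf1*+/+ replicate 3 and 17.1% without *Trf1*flox/flox replicate 3. It was not computed for every left-out library, so nothing is read from these counts. Of 362 alternative values of the 25 named genes tested, 350 moved by less than 1 SD and 12 by more. Filters and the variance trend leave a log2 fold change in limma as it is, so those values could not move. Nor could *Gmppb* and *B3galt6* without a *Trf1*+/+ library, since all 3 were at 0. The SD was also wide, and *B3galnt2* going from 0.66 to -1.95 counted as less than 1 SD. The direction turned for *Alg5*, *B3galnt2*, *C1galt1c1*, *Rpn2* and *Stt3b*. The cause of these shifts was not tested. No paired analysis was possible because the replicate numbers follow the order of deposition and pair no mice. With 3 mice a genotype and single reads behind several values, differences in genes at or under 3 reads were not detectable at this depth.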

Other observations

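The accessory subunits of the oligosaccharyltransferase and the lectin chaperones were also measured. *Dad1*, a small subunit shared by both forms of the enzyme, had 3834, 2554 and 1494 normalized counts (*Trf1*+/+) against 2019, 1616 and 2144 (*Trf1*flox/flox). *Krtcap2*, a subunit of the form with *Stt3a*, had 920.1, 935 and 682 against 792, 1564 and 1124, and the groups overlapped in both genes. *Ostc* had 1065, 964 and 580.4 against 599.7, 1.09 and 764, so that only *Trf1*flox/flox replicate 2 was at the floor. *Canx*, the membrane lectin that binds freshly made glycoproteins, had 5308, 2248 and 3663 against 3798, 3329.9 and 2580.0, with overlap. Its soluble relative *Calr* had 879, 1962 and 1997 against 1849.9, 4119 and 2936 (log2 fold change 0.90, standard error 0.52, unadjusted p 0.112 and adjusted p 0.970 from limma).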
